A study of Homo sapiens with 8 samples.

Results

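The comparison concerns both strands of the miR-150 hairpin, miR-150-5p and miR-150-3p, each transfected on its own into PC3 cells, and the genes that moved under both strands or under 1 strand only. Of 43317 gene names on the array, 16868 were measured on both arrays, which means that the brightest probe of the gene was well above background in both dye channels of both arrays and carried no outlier flag. Each gene has a log2 ratio on the miR-150-5p array, a log2 ratio on the miR-150-3p array, and their difference, taken throughout as miR-150-3p minus miR-150-5p. PC3 cells are an established human line grown from a bone metastasis of a prostate cancer. On each array the RNA of mock PC3 cells, labelled with Cy3 and described as having received no transfection, was hybridised together with Cy5-labelled RNA of PC3 cells transfected with the miRNA by Lipofectamine RNAiMAX. The series holds 8 such 2-colour Agilent arrays with 60-base probes, and the others carry PC3 cells with miR-99a-3p or miR-100-3p and FaDu and PANC-1 cells. Whether the mock RNA was shared between arrays is not stated.

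A miRNA hairpin is cut into a duplex whose strands can each enter an Argonaute protein. A loaded strand pairs with messenger RNAs mainly through its first bases, the seed, and lowers their stability and translation, so both strands of 1 hairpin have different seeds and in general different targets. One strand was long regarded as the guide and the other as a passenger that is discarded, although passenger strands can also be loaded. miR-150-5p is best known from lymphocytes, where it lowers MYB, a transcription factor of blood progenitors.

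With 1 array per strand there was no replicate and no test. The error given after a log2 ratio is the spot error written by the scanner software, that of a difference combines the errors of both arrays, and neither holds the variation between cultures. The median error of a difference was 0.30 over all genes measured, whereas the same probe printed at least 5 times on an array gave a median SD between spots of 0.069 for the difference (283 probes). Ratios were compressed, with spike-in slopes of 0.893 and 0.896 on the expected log ratio. Cy3 was well above background at 49.2% and 48.9% of the gene spots and Cy5 at 41.6% and 41.8%. All arrays had mock RNA in Cy3, so dye and transfection cannot be told apart within an array, but they are the same for both strands. No array of the series carries a control miRNA. A move shared by both strands therefore cannot be told apart from an effect of the transfection itself. The mock channels of the miR-150 arrays were close to each other, with an SD of 0.15 for the log2 difference of their signals, against 0.30 to 0.31 between either of them and the mock channels of the miR-99a-3p and miR-100-3p arrays. The signals are not scaled between arrays. Of the genes taken as PC3 and epithelial markers, 7 of 7 were well above background in both mock channels, with KRT19 at 114000 and 148000 units. This list also holds CD44 and VIM, a mesenchymal filament gene, which was at 72700 and 86800 units. KLK3, the luminal gene for prostate-specific antigen, was at 3.75 and 8.59 units, not well above background. Of 12 markers of blood, endothelial, fibroblast and other cells 4 were above background in both mock channels, PECAM1, CDH5, COL1A1 and SFTPC, between 27.1 and 239 units.

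More genes moved under miR-150-3p than under miR-150-5p. A log2 ratio of at most -1 was found for 131 genes under miR-150-5p (0.777% of those measured) and for 399 under miR-150-3p (2.37%). A log2 ratio of at least 1 was found for 70 genes (0.415%) and 376 genes (2.23%). The SD of the log2 ratio over all genes was 0.34 under miR-150-5p and 0.48 under miR-150-3p, and both medians were 0.02. The difference between the strands was at most -1 for 404 genes (2.40%) and at least 1 for 535 genes (3.17%), around a median of -0.01.

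The genes were then divided by both ratios. A gene was called lowered or raised by both strands where both log2 ratios reached 1 in size with the same sign. It was called moved by 1 strand only where the ratio reached 1 in size on that array, stayed under 0.5 in size on the other, and the difference also reached 1. By this rule 18 genes were lowered by both strands (0.107%) and 15 raised by both (0.0889%), 46 were lowered by miR-150-5p only (0.273%) and 186 by miR-150-3p only (1.10%), 18 were raised by miR-150-5p only (0.107%) and 185 by miR-150-3p only (1.10%), and 8 passed 1 in size in opposite directions (0.0474%). The sizes of the classes depended on the processing: with background correction by normexp and loess in limma 5 genes were lowered and 2 raised by both strands, 89 genes were lowered and 88 raised by miR-150-3p only and 20 lowered by miR-150-5p only, and with the mean of the 4 PC3 mock channels as the control these counts were 9, 11, 86, 85 and 20. Of the 15 genes raised by both strands 2 were in that class under either alternative, and of the 18 lowered by both 5 and 6 were. The rest of the genes past 1 on an array lay in between on the other, namely 62 of the 131 lowered under miR-150-5p and 192 of the 399 lowered under miR-150-3p. The classes end at a sharp limit. PKP1, with -1.02 under miR-150-5p and -1.003 under miR-150-3p, was the last gene inside the class lowered by both, and ARHGAP31, with -0.99 and -1.09, was the first outside. Among genes lowered by miR-150-3p only, HLF at -1.005 was the last inside and SLC1A1 at -0.99 the first outside. For miR-150-5p only these were C15orf65 at -1.003 and AP1S3 at -0.98.

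**Figure D1:**
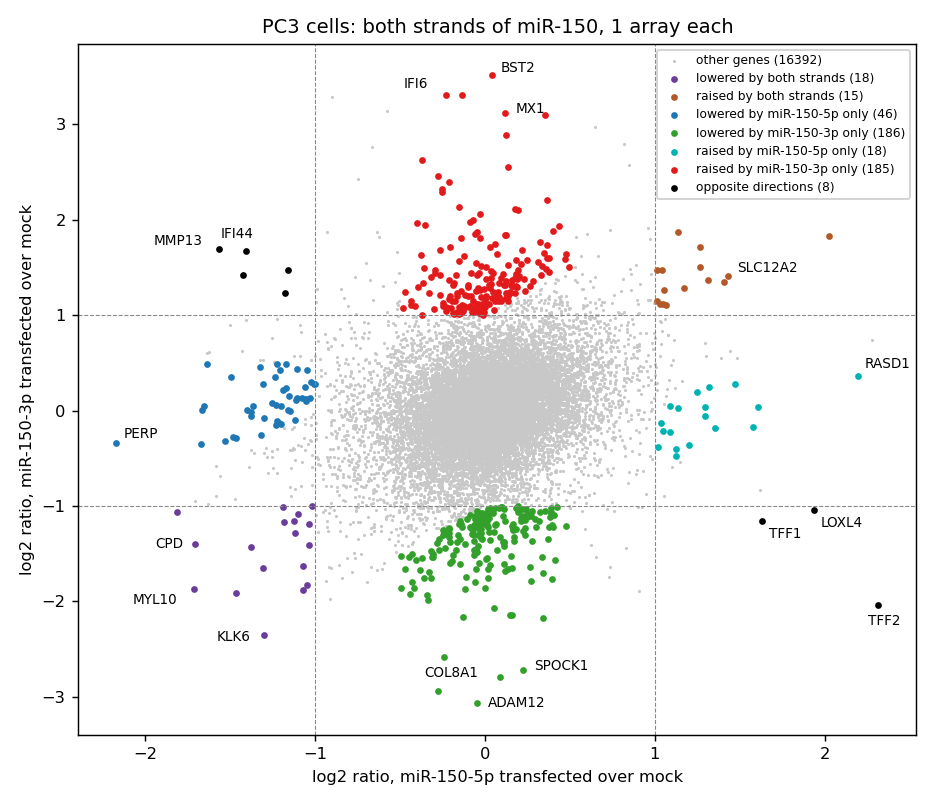
Each point is 1 of 16868 genes, with the log2 ratio of transfected over mock PC3 cells on the miR-150-5p array on the horizontal axis and on the miR-150-3p array on the vertical axis. Colours mark the classes with their numbers of genes, and dashed lines stand at log2 ratios of 1 and -1. The vertical spread, under miR-150-3p, is wider than the horizontal one, and the class corners on both axes hold few genes.

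Of the 18 genes lowered by both strands 16 code for proteins. Their median log2 ratio was -1.15 under miR-150-5p and -1.41 under miR-150-3p. They were dim, with a median log2 signal of 7.52 over the 4 channels, against 9.15 over all genes measured. MYL10, a myosin light chain of muscle, led them. Its mock signals were 163 and 224 units and its signals after transfection 49.9 units with miR-150-5p and 61.2 with miR-150-3p, which gave log2 ratios of -1.71 ± 0.28 and -1.87 ± 0.28. Both transfected signals lay below both mock signals, and the difference of -0.16 was smaller than its error of 0.40. CPD, the membrane-bound carboxypeptidase D, gave 127 units in mock and 38.9 under miR-150-5p, and 153 and 57.7 under miR-150-3p, hence -1.70 ± 0.29 and -1.40 ± 0.27. CSGALNACT1, which starts chondroitin sulfate chains, was at -1.38 and -1.43, and FAR2, a fatty acyl-CoA reductase, at -1.31 and -1.65. KLK6, a secreted serine protease of the kallikrein family, was the only one of the named genes of this class whose ratios differed by more than 1, with 332 units in mock and 135 under miR-150-5p against 412 and 80.6 under miR-150-3p (-1.30 ± 0.24 and -2.36 ± 0.31). The transcription factor SOX7, the carbonic anhydrase CA12, the cytidine deaminase APOBEC3G, PLCXD3 and the non-coding RNA LOC102723911 completed the leading 10, with log2 ratios between -1.92 and -1.09. The differences between the strands within the class ranged from -1.05 to 0.75, with a median of -0.16.

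The 15 genes raised by both strands were dimmer still (median log2 signal 5.88) and 7 of them code for proteins. SLC12A2, the sodium-potassium-chloride cotransporter NKCC1, had 1090 units in mock and 2930 under miR-150-5p, and 1490 and 3970 under miR-150-3p. Its log2 ratios were 1.43 ± 0.24 and 1.41 ± 0.24. BAMBI, a decoy receptor of the TGF-β family, had 1350 and 3240 units, and 1760 and 4980, hence 1.27 ± 0.23 and 1.5 ± 0.25. Both genes were higher in either transfected sample than in either mock sample by more than the spot error. SLC40A1, the iron exporter ferroportin, was at 1.27 and 1.71 and CEMIP, which degrades hyaluronan, at 1.04 and 1.47. SPINK5, ABAT and TRIM50 had mock signals of 18.6 to 34.4 units, near the background, and errors of 0.33 to 0.41.

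The 46 genes lowered by miR-150-5p only included 40 protein-coding ones. Their median log2 ratio was -1.22 under miR-150-5p and 0.09 under miR-150-3p. PERP, a membrane protein of desmosomes and a target of p53, had the lowest ratio of all genes measured on the miR-150-5p array. Its probe lies at chr6:138412056-138412115 (hg19). The signal was 6780 units in mock and 1510 under miR-150-5p, and 8240 and 6510 under miR-150-3p, so that the log2 ratio was -2.17 ± 0.29 on the first array and -0.34 ± 0.21 on the second. Only the miR-150-5p sample stood apart, with a difference of 1.83 ± 0.35 between the strands.

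Larger differences were found for KCTD20 and LRRC57. KCTD20, an adaptor with a BTB domain, had 508 and 163 units on the miR-150-5p array and 648 and 906 on the other, hence -1.64 ± 0.26 and 0.48 ± 0.21, a difference of 2.12. LRRC57, a leucine-rich repeat protein, was at -1.5 and 0.35. ADIPOR2, a receptor for adiponectin, had 1350 units in mock and 427 with miR-150-5p and was at 1560 units in both channels of the miR-150-3p array (-1.67 ± 0.26 and 0.01 ± 0.20). ADAM19, a membrane-bound metalloprotease, was at -1.33 and 0.45. CCL26, the chemokine eotaxin-3, was at -1.65 and 0.05, TNFSF9, the ligand of 4-1BB, at -1.17 and 0.48, and IL7R, a chain of the interleukin-7 receptor, at -1.30 and 0.28. CMTM6, which stabilises PD-L1 at the membrane, was at -1.21 and 0.42. SLC25A44, a mitochondrial carrier of branched-chain amino acids, was at -1.22 and 0.49. RRM2, the small subunit of ribonucleotide reductase, also belonged to the class, with 639 and 273 units against 740 and 668 (-1.23 ± 0.23 and -0.15 ± 0.21).

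The 186 genes lowered by miR-150-3p only included 152 protein-coding ones and 7 long non-coding RNAs. Their median log2 ratio was 0.01 under miR-150-5p and -1.28 under miR-150-3p. ADAM12, a metalloprotease that sheds growth factors, had the lowest ratio on that array. Its signal was 229 units in mock and 222 under miR-150-5p, but 302 in mock and 36.0 under miR-150-3p, hence -0.05 ± 0.21 and -3.07 ± 0.36. A second probe for ADAM12 gave 0.19 and -1.54. SPOCK1, a secreted proteoglycan named testican-1, had 790 and 923 units on the miR-150-5p array and 1100 and 167 on the other, hence 0.22 ± 0.21 and -2.72 ± 0.33 (probe at chr5:136311187-136311246, hg19). COL8A1, a short-chain collagen, had 189 and 202 units against 300 and 43.5, hence 0.09 ± 0.21 and -2.79 ± 0.34. In each of these 3 genes the miR-150-3p sample was the lowest of the 4 channels by far, and the other transfected sample lay within its spot error of mock or just past it.

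GPR56 (current symbol ADGRG1), an adhesion receptor, was brighter, with 6740 and 5710 units under miR-150-5p against 8410 and 1400 under miR-150-3p (-0.24 ± 0.21 and -2.58 ± 0.31). GPC6, a glypican, was at 0.15 and -2.15. SLIT2, a secreted guidance molecule, was at 0.40 and -1.77. MKNK2, a kinase of the translation factor eIF4E, had 9640 and 11600 units against 12500 and 3620, hence 0.27 ± 0.21 and -1.79 ± 0.26, and its second probe gave 0.17 and -0.80. ADARB1, an enzyme that edits adenosine in RNA, was at 0.34 and -1.70, but a second ADARB1 probe gave -0.02 and 1.05, so the probes of this gene disagree in direction. The non-coding RNAs among the leading 10 were LINC00618 at -0.27 and -2.94 and SH3PXD2A-AS1 at 0.34 and -2.17. BCL2, which blocks apoptosis, was at 109 and 122 units against 152 and 48.4, hence 0.16 ± 0.22 and -1.65 ± 0.29.

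The 18 genes raised by miR-150-5p only had a median of 1.23 under miR-150-5p and -0.10 under miR-150-3p. RASD1, a Ras-related protein induced by dexamethasone, is printed 9 times. It had 525 units in mock and 2400 under miR-150-5p, and 672 and 866 under miR-150-3p, hence 2.19 ± 0.29 and 0.37 ± 0.21, and the SD between its spots on the miR-150-5p array was 0.08. MUC2, a secreted gel-forming mucin, was at 1.61 and 0.04. REG4, a lectin of the gut epithelium, was at 1.12 and -0.48. CDK6, a kinase of the G1 phase, had 1160 and 2370 units against 1520 and 1170 and was the last gene inside the class (1.02 ± 0.22 and -0.38 ± 0.21), with ACOXL at 0.97 just outside. CGNL1, a protein of tight junctions, was at 1.13 and -0.41. TMEM139, ADAMTS17, LTB, LAYN and CAPN8 were dimmer, with mock signals of 44.8 to 97.7 units and ratios of 1.09 to 1.58 under miR-150-5p.

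The 185 genes raised by miR-150-3p only had a median of -0.02 under miR-150-5p and 1.31 under miR-150-3p, and all of the leading 10 are known as interferon-induced genes. BST2, or tetherin, which holds enveloped viruses at the cell surface, had 72.6 and 74.8 units on the miR-150-5p array and 117 and 1330 on the miR-150-3p array, hence 0.04 ± 0.25 and 3.51 ± 0.39. IFI6 had 911 and 778 units against 1240 and 12200, hence -0.23 ± 0.21 and 3.30 ± 0.37. RSAD2, or viperin, which makes an antiviral nucleotide, was at -0.14 ± 0.25 and 3.30 ± 0.37. MX1, a GTPase that traps viral nucleocapsids, had 1230 and 1330 units against 1960 and 17000. The smallest rise of the 4 over mock under miR-150-3p was that of MX1, 8.70-fold, and under miR-150-5p all 4 log2 ratios lay between -0.23 (IFI6) and 0.12 (MX1). IFI27 was at 0.12 and 2.89, IFI44L at 0.35 and 3.1, OAS2, an oligoadenylate synthetase, at -0.21 and 2.39, BATF2 at -0.25 and 2.32, and IFIH1, the RNA sensor MDA5, at -0.25 and 2.29. Further OAS2 probes gave 0.15 and 2.15, and 0.14 and 2.14. The last gene inside this class was EGFL7 at 1.00, and ZSCAN31 at 0.99 was just outside.

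**Figure D2:**
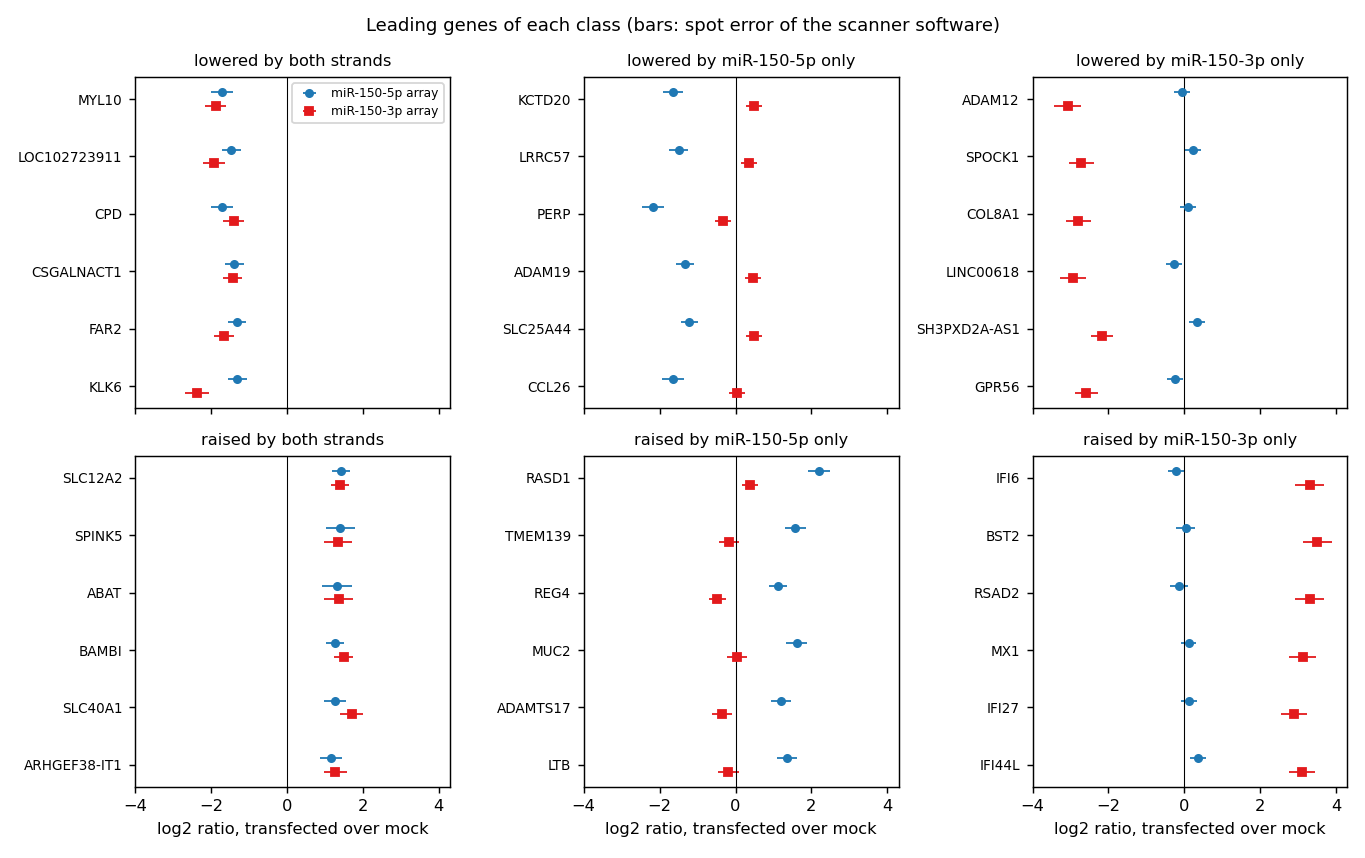
Log2 ratio of transfected over mock on the miR-150-5p array (blue circles) and the miR-150-3p array (red squares) for the first 6 of the leading genes of each of 6 classes, with the spot error of the scanner software as bars. In the upper left and lower left panels both symbols lie on the same side of 0. In the other panels 1 of them lies under 0.5 in size, as the class rule requires, and for several genes it is further from 0 than its spot error.

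The 8 genes that moved in opposite directions all code for proteins. TFF2, a secreted trefoil peptide that protects mucosa, had the largest difference of the whole comparison in the negative direction. It had 5420 units in mock and 27000 under miR-150-5p, and 7160 and 1750 under miR-150-3p, hence 2.32 ± 0.30 and -2.03 ± 0.28, a difference of -4.35 ± 0.41. The related TFF1 was at 1.63 and -1.16, and LOXL4, a lysyl oxidase that crosslinks collagen, had 282 and 1080 units against 348 and 168 (1.94 ± 0.27 and -1.05 ± 0.23). The other 5 genes were lower under miR-150-5p and higher under miR-150-3p. They are MMP13, a collagenase, with 200 and 67.5 units against 214 and 695 (-1.57 ± 0.27 and 1.70 ± 0.26), and 4 interferon-induced genes, IFI44 (-1.41 and 1.67), OASL (-1.43 and 1.42), IFI16 (-1.16 and 1.47) and IFIT2 (-1.18 and 1.23). A second IFIT2 probe gave -1.49 and 0.88. The largest positive difference, outside every class and named after its values were seen, belonged to the hair keratin-associated gene KRTAP3-1, with -0.90 under miR-150-5p and 3.29 under miR-150-3p.

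Genes that dropped to background in a transfected channel are not among the 16868. Of 721 genes above background in both mock channels but not in the miR-150-5p channel, 34 had a lower bound of at least 2-fold on the fall. Of 680 such genes in the miR-150-3p channel, 91 did. A bound is the mock signal over the lowest signal called above background on that array and channel, or over the signal of the dim probe where that is higher. Against the brightest spot of the channel that failed the background call, 6 and 21 genes had such a bound. AK5, an adenylate kinase, was at least 4.70-fold lower under miR-150-5p (148 units in mock and 31.6) and was also low under miR-150-3p (-1.23). PRSS35 was at least 3.64-fold lower under miR-150-5p, with 1.28 under miR-150-3p. DDX60 and HERC5, both interferon-induced, were at least 3.57-fold and 2.50-fold lower under miR-150-5p and stood at 1.63 and 1.42 under miR-150-3p. The highest bounds in the miR-150-3p sample belonged to PTGFRN, a tetraspanin partner (at least 6.32-fold lower, with 0.32 under miR-150-5p), CLSPN, the replication checkpoint adaptor claspin (at least 4.44-fold, with -0.27), MUC5AC, a gel-forming mucin (at least 4.34-fold, with 1.17), VTRNA1-1, a vault RNA (at least 3.97-fold, with -0.82) and B3GALT1 (at least 3.85-fold, with 0.15). In addition 1777 genes were dim in both transfected channels and 7 of them had bounds of at least 2-fold on both arrays, FAM107A with at least 3.48-fold and 3.77-fold and LCTL with at least 2.76-fold and 3.14-fold among them. Starting from mock channels below background, 57 genes were measured in the miR-150-3p sample alone and 10 in the miR-150-5p sample alone. STK31, with 9.79 and 9.56 units in mock, 5.36 under miR-150-5p and 410 under miR-150-3p, was at least 23.0-fold higher in the last, and MAL was at least 6.08-fold higher under miR-150-5p.

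Interferons are signals of viral infection, and cells that sense foreign RNA through DDX58 (RIG-I), IFIH1 or TLR3 make them and then induce a large set of antiviral effectors through a complex that holds STAT2 and IRF9. On a list of 51 effectors 40 were measured, and all but 3 of these were higher under miR-150-3p than under miR-150-5p. Their median log2 ratio was -0.26 under miR-150-5p and 1.39 under miR-150-3p, with a median difference of 2.02, against -0.01 over all genes measured. The difference reached 1 for 31 of the 40, against 3.17% of all genes measured. Under miR-150-3p 27 of them reached a log2 ratio of 1 and none was at or below -1, against 2.23% and 2.37% of all genes. Under miR-150-5p none reached 1 and 3 were at or below -1, against 0.415% and 0.777% of all genes, and 32 of 40 were below 0. MX2 had the largest difference on the list, with 126 and 84.6 units against 167 and 1470 (-0.57 ± 0.24 and 3.14 ± 0.36), followed by IFI6, BST2, RSAD2 and IFIT1, which binds foreign RNA caps, with 1680 and 1060 units against 2240 and 15200 (-0.67 ± 0.21 and 2.76 ± 0.33). The effectors not higher under miR-150-3p were ISG20, TRIM5 and SP100, with differences of -0.32, -0.26 and -0.21. Among the 11 that were not measured, HERC5, SAMD9, GBP2 and RTP4 were dim in the miR-150-5p channel and measured in the miR-150-3p channel, HERC6, TRIM22 and GBP1 were above background in the miR-150-3p channel alone, XAF1 and EPSTI1 were dim in all 4 channels, and UBA7 followed none of these patterns. RTP4, with 20.9 units under miR-150-5p, reached 278 under miR-150-3p.

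Upstream of the effectors, 22 of 30 sensors and signalling genes were measured, with a median difference of 0.14. The difference reached 1 for 6 of them, among them IFIH1 (2.54), DDX58 (1.95), IRF9 (1.84), STAT2 (1.19) and the inhibitor SOCS1 (1.04). The share of all genes measured with a difference of at least 1 was 3.17%. The receptor chains IFNAR1 and IFNAR2 had differences of -0.61 and 0.06, the adaptor MAVS one of -0.36 and the kinases JAK1 and TYK2 differences of -0.14 and -0.23. The interferon genes IFNB1, IFNL1 and IFNL3 were dim in all 4 channels, with IFNB1 at 15.0 units under miR-150-3p and 4.58 to 5.46 units in the others. At such signals the log2 ratio of IFNB1 under miR-150-3p, 1.71, had a spot error of 1.38. Those of IFNL1 and IFNL3 were 0.25 and 0. Genes for the presentation of peptides on HLA class I had a median difference of 0.63, and 18 of 20 were higher under miR-150-3p. The 4 that reached 1 were PSMB9, a subunit of the immunoproteasome (-0.40 and 1.96), TAP1, the peptide transporter (0.06 and 1.75), B2M, the light chain of class I molecules (-0.54 and 0.59), and the peptide-trimming enzyme ERAP2 (-0.61 and 0.47). HLA-B and HLA-C had differences of 0.91 and 0.94, and their probes may share signal because these genes are nearly identical. Among 19 NF-κB and inflammatory targets 1 reached 1, BIRC3 with a difference of 1.01, against 3.17% of all genes measured, and the list median was 0.15.

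DNA replication and mitosis genes were lower under both strands, and more so under miR-150-3p. Of 38 replication genes measured, 32 were below 0 under miR-150-5p and 37 under miR-150-3p. Their medians were -0.24 and -0.87, with a median difference of -0.55 and 35 of 38 lower under miR-150-3p. Of the 38 genes 1 was at or below -1 under miR-150-5p and 9 under miR-150-3p, against 0.777% and 2.37% of all genes measured. GINS2, a subunit of the replicative helicase, is printed 6 times and had 1450 and 1460 units against 1850 and 806 (0.01 ± 0.20 and -1.20 ± 0.23). CDC45, of the same helicase, was at -0.04 and -1.17, and CDT1, which loads the helicase, at 0.05 and -1.07. RRM2 went the other way, as given above. For mitosis 36 of 40 genes were below 0 under miR-150-5p and 40 of 40 under miR-150-3p, with medians of -0.32 and -0.70, and 0 and 6 of 40 were at or below -1. AURKB, the kinase of the chromosomal passenger complex, had the largest difference (-0.25 and -1.25). NCAPG, a condensin subunit, was at -0.45 and -0.89. The same lists had medians of -1.83 and -2.11 on the miR-99a-3p array and of -0.41 and -0.57 on the miR-100-3p array.

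Regulators of the G1 phase had a median difference of -0.37, with 15 of 21 lower under miR-150-3p. CDK6, E2F2 (-0.06 and -1.46), MYC (0.55 and -0.75, over 9 spots) and cyclin E1, CCNE1 (0.19 and -0.89), had differences past -1. Over all genes measured 2.40% had a difference at or below -1. Of the microRNA machinery, AGO4 reached a difference of 1.02 and DICER1, which cuts hairpins into duplexes, was higher under both strands (1.08 and 0.79), while AGO2 was at -0.03 and -0.47.

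Collagens and the enzymes that modify them had a median difference of -0.37, but members ranged from -2.98 to 2.32. LOX, a lysyl oxidase printed 10 times, had 66.4 and 104 units against 83.1 and 650 (0.65 ± 0.25 and 2.97 ± 0.35), which is opposite to LOXL4 and COL8A1, and PLOD2, a collagen lysyl hydroxylase, was at -0.30 and 1.06. COL5A1 was at -0.04 and -1.06. Of matrix proteases and their inhibitors 4 of 19 were at or below -1 under miR-150-5p, against 0.777% of all genes measured, namely MMP1 (-1.22), MMP13 (-1.57), MMP14 (-1.14) and PLAT (-1.14). MMP9, a gelatinase, and MMP7 were raised by miR-150-3p only, at 1.44 and 1.21. The integrin chains ITGB4 and ITGB3 had differences of -1.63 and -1.03 and ITGAV one of 1.03. The list of epithelial-mesenchymal transition genes had a median difference of -0.04, with occludin (OCLN) alone reaching 1.

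For the lists above and those that follow, the share of all genes measured whose difference reached 1 in size was 2.40% in the negative and 3.17% in the positive direction. As background for counts by sign, the difference was above 0 for 8289 and below 0 for 8579 of all 16868 genes. The median log2 ratio of all genes was 0.02 on either array. In the synthesis of cholesterol and fatty acids, HMGCS1 (0.15 and 1.31) and STARD4 (-0.47 and 0.76) reached 1 and the median of 28 genes was 0.17. For glycolysis and hypoxia 23 of 27 genes were higher under miR-150-3p, with ANKRD37, ADM and ENO2 past 1 (1.22, 1.07 and 1.01) and a median of 0.37. SLC7A11, the cystine transporter, was the only one of 25 stress genes to reach 1 (-0.86 and 0.47). In the BCL2 family, BCL2 was lower under miR-150-3p while the pro-apoptotic PMAIP1 and BAK1 were lower under miR-150-5p (-0.79 and -0.80), with differences of 1.18 and 1.04, and JAG1 was the only Notch pathway gene to reach 1 (0.18 and 1.31). Growth factor receptors and ligands had a median of -0.11 and no member at 1, and the respiratory chain one of -0.05 and none. Ribosomal proteins had a narrow spread, and 45 of 46 were lower under miR-150-3p, with a median difference of -0.20 and a range from -0.53 to 0.02.

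**Figure D3:**
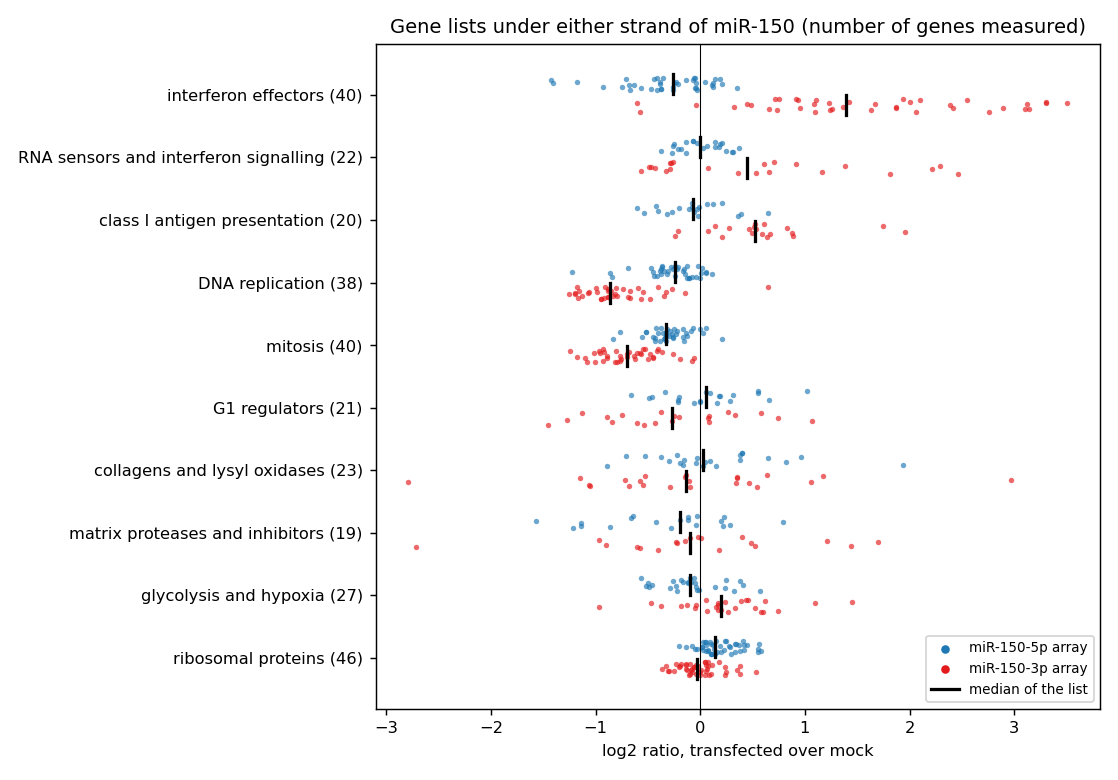
Log2 ratios of the measured members of 10 gene lists on the miR-150-5p array (blue) and the miR-150-3p array (red), 1 point per gene, with black bars at the list medians. The interferon effectors are spread from -0.61 to 3.51 under miR-150-3p and from -1.43 to 0.35 under miR-150-5p, and replication and mitosis genes lie mostly left of 0 on both arrays.

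Genes named in the literature as targets of miR-150-5p were examined as a list of 17, of which 14 were measured. On the miR-150-5p array 11 of 14 were below 0, with a median of -0.16, and 10 of 14 were below 0 on the miR-150-3p array, with a median of -0.13. MYB was the lowest under miR-150-5p, with 234 and 96.4 units against 310 and 221 (-1.28 ± 0.24 and -0.49 ± 0.21). MMP14 was at -1.14 and -0.61, ZEB1, a repressor of epithelial genes, at -0.70 and -0.49, the ATP-gated channel P2RX7 at -0.49 and -0.28, DKC1 at -0.38 and -0.34, FOXP1 at -0.26 and -0.10, AKT2 at -0.17 and -0.07 and TRPM4 at -0.15 and -0.01. NOTCH3 (-0.04 and 0.41), PDCD4 (-0.04 and 0.52), VEGFA (-0.03 and 0.06), SP1 (0.28 and -0.16) and SLC2A1 (0.57 and 0.58) were near 0 or above it under miR-150-5p. SPOCK1 was not lower under miR-150-5p but was among the lowest genes under miR-150-3p. The paper cites earlier work that reported SPOCK1 as a target of both strands in prostate cancer cells. The values here are RNA levels from 1 array per strand. The chemokine receptor CXCR4 was dim under miR-150-5p, with 36.5 units in mock and 34.5, and was at 40.6 and 527 units on the miR-150-3p array.

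The probe letters were ranked without reference to any miRNA. Every 7-letter word present in the probes of at least 60 measured genes was given the mean log2 ratio of those genes, which made 6735 words. The polyadenylation signal AATAAA occurred in 4567 of 58201 probes and its reverse complement TTTATT in 2096. On the miR-150-5p array the lowest mean belonged to TTGGGAG (103 genes, mean -0.16), which had a mean of 0.00 and rank 2912 on the miR-150-3p array. On the miR-150-3p array the lowest mean belonged to TGTACCA (65 genes, mean -0.26), which had a mean of 0.03 and rank 4538 on the miR-150-5p array. On the miR-99a-3p array these words held ranks 4110 and 6614, and on the miR-100-3p array 1113 and 5675. The words were chosen by these ratios, so the values are a description.

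With words in at least 30 genes (10660 words) the ranks became 8 for TTGGGAG and 2 for TGTACCA, where GTACCAA (40 genes, mean -0.39), which shares 6 letters with TGTACCA, came first. With the median in place of the mean they were 7 and 1, and with the mean of the 4 PC3 mock channels as the control both were 1. Neither word reached 120 genes, the third limit tried. Of the 65 genes with TGTACCA 11 (16.9%) were at or below -1 under miR-150-3p, against 2.37% of all genes measured, and 0 under miR-150-5p. Of the 103 genes with TTGGGAG 2 (1.94%) were at or below -1 under miR-150-5p, against 0.777% of all genes measured. TGTACCA stood in the probes of 4 of the 186 genes lowered by miR-150-3p only (2.15%, against 0.385% of all genes measured), and TTGGGAG in none of the 46 lowered by miR-150-5p only (0.611% of all genes measured). Both words were chosen as the lowest by these same ratios, so a share of low genes above that of all genes follows in part from the choice. A probe covers 60 bases of a transcript, so most of each transcript was not searched.

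The probe stretches below belong to genes with either word that were at or below -1 on the array where the word ranked lowest, with the word in capitals and 21 letters shown as the array annotation lists them (hg19). They were picked after their values were seen.
MMP14, probe at chr14:23315791-23315850: taagaccTTGGGAGgaaaact
CTH, probe at chr1:70905041-70905100: tgctactTTGGGAGattatgt
CAMK2N2, probe at chr3:183977003-183977062: tcctcacTGTACCAggagtgt
NANOS1, probe at chr10:120790867-120790926: cgttctaTGTACCAggtattt
MOXD1, probe at chr6:132617386-132617445: tgacacaTGTACCAcatactg
PIGK, probe at chr1:77557464-77557523: cttacatTGTACCAaatgttt
FMNL3, probe at chr12:50038755-50038814: ttgtacaTGTACCAcctccct
Under miR-150-5p and miR-150-3p in turn, MMP14 was at -1.14 and -0.61 and CTH, an enzyme that makes cysteine, at -1.12 and -0.41. CAMK2N2, an inhibitor of calmodulin kinase II, was at -0.33 and -1.70, PIGK, of the complex that attaches glycolipid anchors, at -0.23 and -1.44, and FMNL3, a formin, at 0.00 and -1.19. The RNA-binding protein NANOS1 (0.74 and -1.63) and MOXD1 (0.83 and -1.45) were above mock under miR-150-5p. Apart from FMNL3, CAMK2N2 and PIGK, which were lowered by miR-150-3p only, these genes belong to no class.

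**Figure D4:**
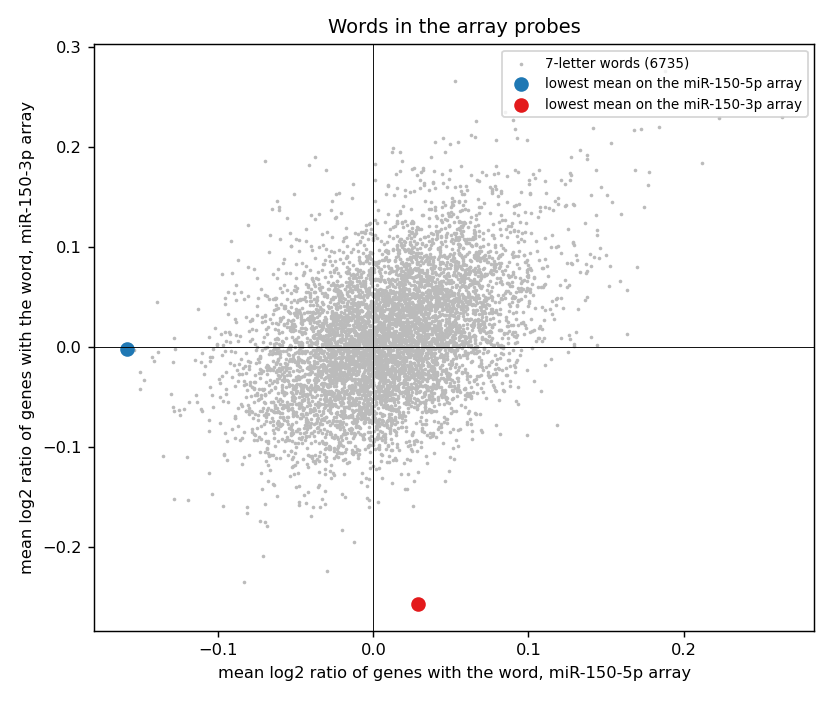
Each grey point is 1 of 6735 words of 7 letters, placed at the mean log2 ratio of the genes whose probe holds it on the miR-150-5p array (horizontal axis) and the miR-150-3p array (vertical axis). The blue point, at -0.16 on the horizontal axis, and the red point, at -0.26 on the vertical axis, are the lowest words of either array, and each lies near 0 on the other axis.

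Promoters were searched for the interferon-response motif GAAANNGAA on both strands, within 250 bases before and 50 after the gene start (RefSeq, GRCh38.p14). It stood in 8.29% of all 27305 promoters of the table and in 6.13% of 10518 measured genes with a promoter. Of the interferon effectors 24 of 33 had it (72.7%). Of the genes raised by miR-150-3p only 26 of 109 had it (23.9%), made up of 16 of 23 on the interferon and class I lists and 10 of 86 outside them (11.6%). Of those lowered by miR-150-3p only, 3 of 124 had it (2.42%), and of those lowered by miR-150-5p only, 5 of 35 (14.3%). The E2F motifs TTTCCCGC and TTTGGCGC, also on both strands, do not contain each other. TTTCCCGC stood in 1.66% of all promoters, 2.55% of measured genes, 8.06% of those lowered and 7.34% of those raised by miR-150-3p only, and 29.0% of the replication genes. TTTGGCGC stood in 0.659% of all promoters, 1.06% of measured genes, 3.23% of genes lowered by miR-150-3p only and 16.1% of the replication genes. Of the mitosis genes 2.94% had either motif when each was counted alone. A match describes the letters of the promoter and shows no binding.

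Promoter stretches of 6 of the interferon genes with the largest differences are shown 5′ to 3′ on the strand of the gene, with the motif, or its reverse complement for IFIT1 and IFI44, in capitals (GRCh38.p14).
IFI6, minus strand, chr1:27672334-27672354: agagggGAAAATGAAactctg
BST2, minus strand, chr19:17405746-17405766: ttctggGAAACTGAAactgaa
RSAD2, plus strand, chr2:6865800-6865820: ggaaacGAAAGCGAAgcgttg
IFIT1, plus strand, chr10:89392502-89392522: tttagtTTCACTTTCcccttt
IFI44, plus strand, chr1:78649766-78649786: ctgagtTTCAGTTTCctttct
MX1, plus strand, chr21:41420563-41420583: agaaatGAAACCGAAactgaa
Under miR-150-5p the log2 ratios of these 6 genes were -0.67 for IFIT1, -1.41 for IFI44, -0.23 for IFI6, -0.14 for RSAD2, 0.04 for BST2 and 0.12 for MX1.

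The ratios rest on the mock channels, which were therefore compared. After loess and scaling between arrays, the mock signal of the miR-150-3p array minus that of the miR-150-5p array had a median between -0.04 and 0.04 on the log2 scale in each of the 7 classes. This mock difference reached 0.5 in size for 4 of the 185 genes raised and 1 of the 186 lowered by miR-150-3p only, against 34 of all 16868 genes measured. Among the 185 raised genes it ranged from -0.73 to 1.21. Setting the transfected channels directly against each other, the miR-150-3p signal minus the miR-150-5p signal had a median of -1.04 for genes lowered and 1.00 for genes raised by miR-150-3p only, 0.94 for genes lowered and -0.87 for genes raised by miR-150-5p only. It kept the sign of the difference and reached 1 in size for 99 of 186, 92 of 185, 20 of 46 and 8 of 18 genes of these classes and for 8 of 8 that moved in opposite directions. Over all 16868 genes measured 425 did so. The transfected signals are part of the ratios that chose the members, so these values describe the classes and are no separate support. Other probes of the members were available for few genes. Of 46 further probes of genes lowered by miR-150-3p only, 41 had a difference of the same sign and 18 one of at least 1 in size, and of 43 for genes raised by miR-150-3p only 36 and 16 did. For genes lowered by miR-150-5p only 5 of 7 had the same sign. The further probe fell into the same class as the gene for 13 of 46, 11 of 43 and 1 of 7 of these probes.

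The values of the members on the remaining PC3 arrays are given side by side, since the mock RNA may be shared. Of the genes lowered by miR-150-3p only 51 of 186 (27.4%) were at or below -1 on the miR-99a-3p array, where 5.48% of all genes measured were, and 2 of 186 (1.08%) on the miR-100-3p array, where 0.931% were. Of the genes raised by miR-150-3p only 29 of 185 (15.7%) were at or above 1 on the miR-99a-3p array (3.45% of all) and 3 of 185 (1.62%) on the miR-100-3p array (0.664% of all), where 15 of 185 (8.11%) were at or below -1. Genes lowered by miR-150-5p only were at or below -1 in 8 of 46 cases (17.4%) on the miR-99a-3p array and in 0 of 46 on the miR-100-3p array. Of the 18 genes lowered by both strands 6 (33.3%) and 1 (5.56%) were, and their medians on the 2 arrays were -0.66 and -0.03. Of the 15 genes raised by both, 6 (40.0%) were at or above 1 on the miR-99a-3p array, where the class median was 0.79. The interferon effectors had medians of -0.17 on the miR-99a-3p array and -0.30 on the miR-100-3p array, so that among these 4 arrays their median was above 0 under miR-150-3p alone.

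**Figure D5:**
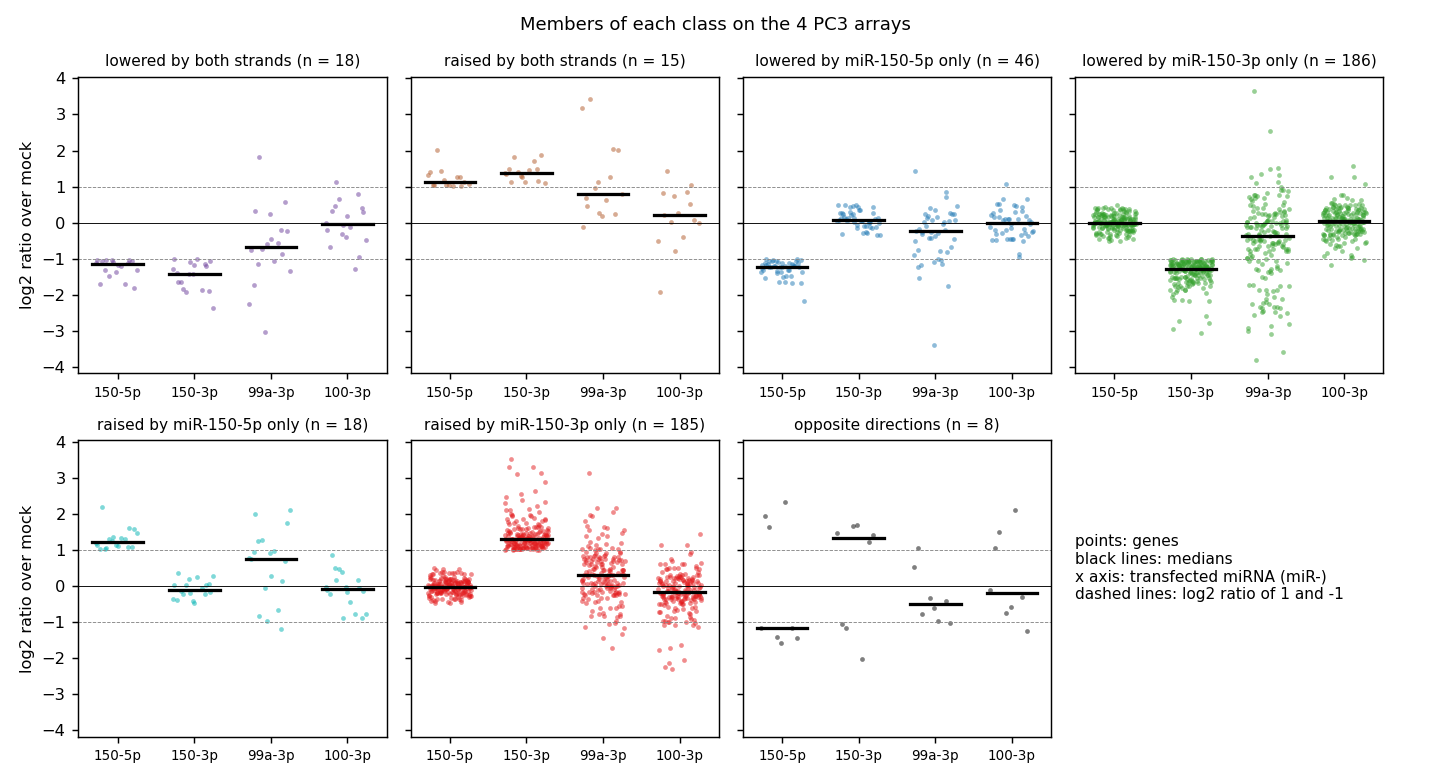
Log2 ratio over mock of the members of each class on the 4 PC3 arrays, named by the transfected miRNA, with 1 point per gene and black lines at the medians. The columns of 150-5p and 150-3p show the values that chose the members. On the 99a-3p column the genes lowered by miR-150-3p only spread widely around a median of -0.37, and on the 100-3p column they lie near a median of 0.04.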

How the data were processed

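The authors scanned each array and processed it with Agilent Feature Extraction 10.7.3.1, which corrected the background, normalized the dyes (linear, then lowess) and gave, per the file headers, dye-normalized intensity values, a log10 ratio of Cy5 over Cy3 and its error for every spot. The deposited log10 values of the whole series were identical to these ratios on the 4 PC3 arrays. Its 4 columns of FaDu and PANC-1 cells were not used here. Log10 ratios were multiplied by 3.32 to the log2 scale. Left out were control spots and those flagged as non-uniform or as population outliers (81 and 136 of 60901 gene spots on the miR-150-5p and miR-150-3p arrays, none saturated), spots of a probe were averaged, and each of 58201 probes had to be well above background in both channels of both arrays. Signals are in arbitrary units. Positions are those of the array annotation (hg19), and whether a probe lies in a coding part or an untranslated region was not determined. Symbols of 13350 of the 16868 genes were found in RefSeq (GRCh38.p14).

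Groups came from the sample labels. No test was run on single arrays, whose number sets the precision. The members, the 25 gene lists (4 of them cell type markers, 1 of reported targets from general knowledge) and the thresholds were chosen with earlier results of these data known. Named genes have a RefSeq symbol and are the 10 whose weaker ratio is largest (both strands), the 10 with the largest difference (1 strand, each direction), the 5 largest (opposite), the 5 highest bounds per strand, up to 5 members a list with a difference of 1 or more, all measured reported targets and the genes next to a threshold. Other genes were named after their values were seen. Some genes that this rule names are not reported here.

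The results were recomputed with limma 3.58.1 under R 4.3.3 (normexp at an offset of 50, loess), the mean of the 4 PC3 mock channels after loess and Aquantile as the control, the series values, a filter on at least 1 channel, no filter, the mean over probes, outlier spots kept and thresholds of 0.58 and 2. The limit for dim signals and the settings of the word ranking were added after seeing the data. Class calls, word ranking and the limma step were tested on simulated data. Tables were made with numpy 2.4.6 and pandas 2.3.3 in Python 3.11.15.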

Additional observations from a re-analysis of the deposited data

How the results depend on the processing

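No paired analysis was possible because every strand was hybridised on 1 array. The counts of genes lowered by both strands, raised by both, lowered by miR-150-5p only, lowered by miR-150-3p only, raised by miR-150-5p only, raised by miR-150-3p only and moved in opposite directions (18, 15, 46, 186, 18, 185 and 8) depended on the filter, the background correction and the threshold. With limma (normexp and loess) they were 5, 2, 20, 89, 6, 88 and 5, of which 5, 2, 18, 87, 5, 83 and 5 were the same genes, and an offset of 50 pulls the ratios of dim probes toward 0 by construction. With the mean of the PC3 mock channels as the control the 7 counts were 9, 11, 20, 86, 11, 85 and 4, of which 6, 2, 16, 78, 6, 73 and 3 were the same genes. With a filter on at least 1 channel, which adds dim genes, 159 were lowered by both strands, 262 and 526 lowered by 1 strand only, 36 raised by miR-150-5p only and 41 moved in opposite directions, and with no filter the 7 counts were 329, 203, 569, 931, 1080, 1291 and 198. At a threshold of 0.58 they were 183, 196, 272, 893, 198, 803 and 99, and at 2 they were 0, 0, 0, 10, 0, 15 and 1. The series values, the mean over probes and outlier spots kept left all 7 counts within 1.5 times. Of genes dim under miR-150-5p or miR-150-3p, 6 and 21 in place of 34 and 91 had a bound of at least 2-fold when the limit was the highest signal not called above background. The median difference of the interferon effectors, 2.02, was 1.66 with limma and 1.67 with the PC3 mock mean. The other 166 recomputed list medians moved by less than the median spot error. No called difference or ratio of a named gene changed sign, and 123 of 966 recomputed values of named genes moved by more than their spot error. These moves came mostly from 2 settings. With limma 61 values moved and 77 did not, and with the PC3 mock mean 57 moved. The mean over probes moved 5, and the series values, which equal the ratios used, left all 138 unmoved. Dim genes, the absence of replicates and of a dye swap set the limits of these data.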
